A study of Mus musculus with 4 samples.

Results

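Wnt ligands, their Frizzled receptors and the secreted Dickkopf and Frizzled-related inhibitors were described in amacrine cells of the mouse retina, a class of inhibitory interneuron, at postnatal days 6 to 7. The genes were chosen by symbol alone: every Wnt, Fzd, Dkk1 to Dkk4 and Sfrp1 to Sfrp5 row of the count table. This gave 37 of the 55471 gene rows, made up of 19 Wnt, 10 Fzd, 4 Dkk and 4 Sfrp genes. Of these, 24 had enough counts to be tested, 9 had too few, and 4 had no count in any library.

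All mice were C57BL6 and carried Gbx2-CreERT2-IRES-EGFP, an allele that makes an inducible Cre recombinase and the green protein EGFP under the control of Gbx2, together with Ai9, which makes the red protein tdTomato wherever Cre has acted. All sorted cells had tdTomato, and they were divided into a GFP-negative fraction (cell type 1 of the series) and a GFP-positive fraction (cell type 2). EGFP reports the activity of the Gbx2 locus when the cells were sorted, whereas tdTomato also stays in cells that no longer express Gbx2; when Cre was induced is not given in the labels. The GFP-negative libraries were replicates 2 and 6 and the GFP-positive ones replicates 2 and 3, so n = 2 per fraction. Pairs of values for a fraction follow that order throughout. Each came from 750 to 2500 cells, and the series describes 4 biological replicates from 3 litters, of which those not named here were not analysed here.

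Wnt proteins are secreted lipid-modified ligands that bind the extracellular cysteine-rich domain of Frizzled receptors. With the co-receptors Lrp5 and Lrp6 they stabilise beta-catenin, which acts in the nucleus with TCF/LEF factors, while other Wnt and Frizzled pairs act through planar cell polarity or calcium. Frizzled-related proteins bind Wnts outside the cell, and Dkk1, Dkk2 and Dkk4 act on the Lrp co-receptors. In the retina the pathway is known for its roles in the ciliary margin, in axon and dendrite growth and, through the ligand Norrin and Fzd4, in blood vessels.

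In this gene set, Dkk3 was the most abundant gene and the only one past the test, 6.9-fold lower in the GFP-positive fraction. It did not pass with edgeR's legacy quasi-likelihood form, which was fitted first, or without a filter on low counts. Its direction was the same in every alternative, and the form reported here was chosen with results of both known. Dkk2 had counts in both GFP-negative libraries and in neither GFP-positive library. Fzd2 had counts in all 4 libraries and differed in the other direction, with a mean 13-fold higher in GFP-positive cells. That size moved when single libraries were left out, and neither Dkk2 nor Fzd2 passed the test over all genes. The most abundant receptor, Fzd3, and 4 of the 8 tested ligands had overlapping levels in the 2 fractions.

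Sequence upstream of the start site is shown for 4 genes whose counts are described below: Dkk2, because it had no count in GFP-positive cells, Wnt11, because its groups did not overlap and its window holds a TCF/LEF word, and the neighbouring ligands Wnt9b and Wnt3. Each is the 250 bases before a RefSeq start in GRCm38.p6, 5′ to 3′ on the gene's strand. Capitals mark the words searched on both strands: a TCF/LEF word, CTTTGAT with its reverse complement ATCAAAG, the TATA box word TATAAA with its reverse complement TTTATA, and the GC box word GGGCGG with its reverse complement CCGCCC. The regions are chr3:132085042-132085291 (plus strand) for Dkk2, chr7:98834862-98835111 (plus) for the first of 2 Wnt11 starts, chr11:103749822-103750071 (minus) for Wnt9b and chr11:103773925-103774174 (plus) for Wnt3.
Dkk2: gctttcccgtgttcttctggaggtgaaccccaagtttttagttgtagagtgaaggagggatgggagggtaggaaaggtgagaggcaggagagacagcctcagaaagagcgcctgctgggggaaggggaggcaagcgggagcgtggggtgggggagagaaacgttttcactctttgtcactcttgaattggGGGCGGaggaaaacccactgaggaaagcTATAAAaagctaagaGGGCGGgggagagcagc
Wnt11: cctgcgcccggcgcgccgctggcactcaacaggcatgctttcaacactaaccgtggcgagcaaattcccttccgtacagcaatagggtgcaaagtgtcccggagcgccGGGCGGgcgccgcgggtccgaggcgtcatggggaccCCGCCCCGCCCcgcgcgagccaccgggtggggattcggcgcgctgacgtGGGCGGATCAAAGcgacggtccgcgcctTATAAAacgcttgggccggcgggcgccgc
Wnt9b: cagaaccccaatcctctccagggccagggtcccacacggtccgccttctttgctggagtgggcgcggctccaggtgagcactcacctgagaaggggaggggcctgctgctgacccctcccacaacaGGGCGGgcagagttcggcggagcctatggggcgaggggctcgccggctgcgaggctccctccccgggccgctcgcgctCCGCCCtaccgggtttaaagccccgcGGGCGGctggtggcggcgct
Wnt3: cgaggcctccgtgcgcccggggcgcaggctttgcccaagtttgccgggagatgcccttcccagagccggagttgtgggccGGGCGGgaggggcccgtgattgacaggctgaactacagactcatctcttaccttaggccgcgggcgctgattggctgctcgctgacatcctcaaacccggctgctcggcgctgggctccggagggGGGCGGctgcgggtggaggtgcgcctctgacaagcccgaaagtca

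Of the 37 genes, 25 had a promoter window in the RefSeq table. The TCF/LEF word occurred in 3.21% of all 32851 windows of this length, the TATA word in 12.4% and the GC box word in 32.7%. Counting back from the base before the start as -1 and giving the first base of a word, Dkk2 held TATAAA at -32 and GGGCGG at -60 and -17. The Wnt11 window held ATCAAAG at -51, directly after a GGGCGG at -57 with which it shares no base, and TATAAA at -29. Wnt9b and Wnt3 held GC box words only. The other of the 25 genes with a TCF/LEF word was Wnt5b, with CTTTGAT at -71, and the second Wnt11 window held none of the words. A match is a description of the letters, not a binding site.

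Total counts ran from 41040667 to 44689917 per library, and levels are given as raw counts, as CPM (counts scaled to a common library size, after TMM scaling) or as RPKM, the CPM per kilobase of exon, for levels set across genes. A count of 3, used as the floor where a gene had none, was 0.0631 to 0.0838 CPM, and this covers counting error only. Gbx2, on which the GFP sort is based, had 1199 and 1988 counts in GFP-negative cells and 27524 and 23596 in the GFP-positive libraries. The 12 genes listed as pan-amacrine, with Pax6 at 61163 to 90154 counts, were present in every library. The list also holds genes of GABA or glycine use (Gad1, Gad2, Slc32a1 and Slc6a9), so its sum is not a measure of amacrine content. The 12 genes together reached 4433 and 6164 CPM in the GFP-negative libraries and 2928 and 1879 CPM in the GFP-positive ones. Of these sums, Gad1 alone gave 985 and 1766 CPM in the GFP-negative and 155 and 69.2 CPM in the GFP-positive libraries. Markers of other cells were present too, with sums of 9831, 2422, 11225 and 19294 CPM for 16 rod genes in the same order. The rod sum of GFP-negative replicate 2 was nearer to that of GFP-positive replicate 2 than to that of GFP-negative replicate 6. Over all 17940 genes tested, 198 had an edgeR quasi-likelihood adjusted p under 0.05, which is called a call here. None of the 16 rod genes was called.

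Together the 37 genes summed to 1159 and 1773 CPM in the GFP-negative libraries and to 384 and 243 CPM in the GFP-positive ones. Without Dkk3 the sums were 151, 195, 140 and 112 CPM. The sum of the family was thus mostly Dkk3. By subfamily, the Wnt genes summed to 16.7 to 21.8 CPM in all 4 libraries and the Frizzled genes to 90.5 to 150 CPM. Fractions overlapped for the Wnt sums and were separate for the Frizzled sums. The Frizzled sums were mostly Fzd3, at 81.2 and 129 CPM in GFP-negative and 81.7 and 52.2 CPM in GFP-positive cells. Fzd3 itself overlapped between the fractions. The Frizzled-related genes had sums of 13.3 and 26.5 CPM in GFP-negative cells and 11.9 and 4.58 CPM in GFP-positive cells.

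**Figure D1:**
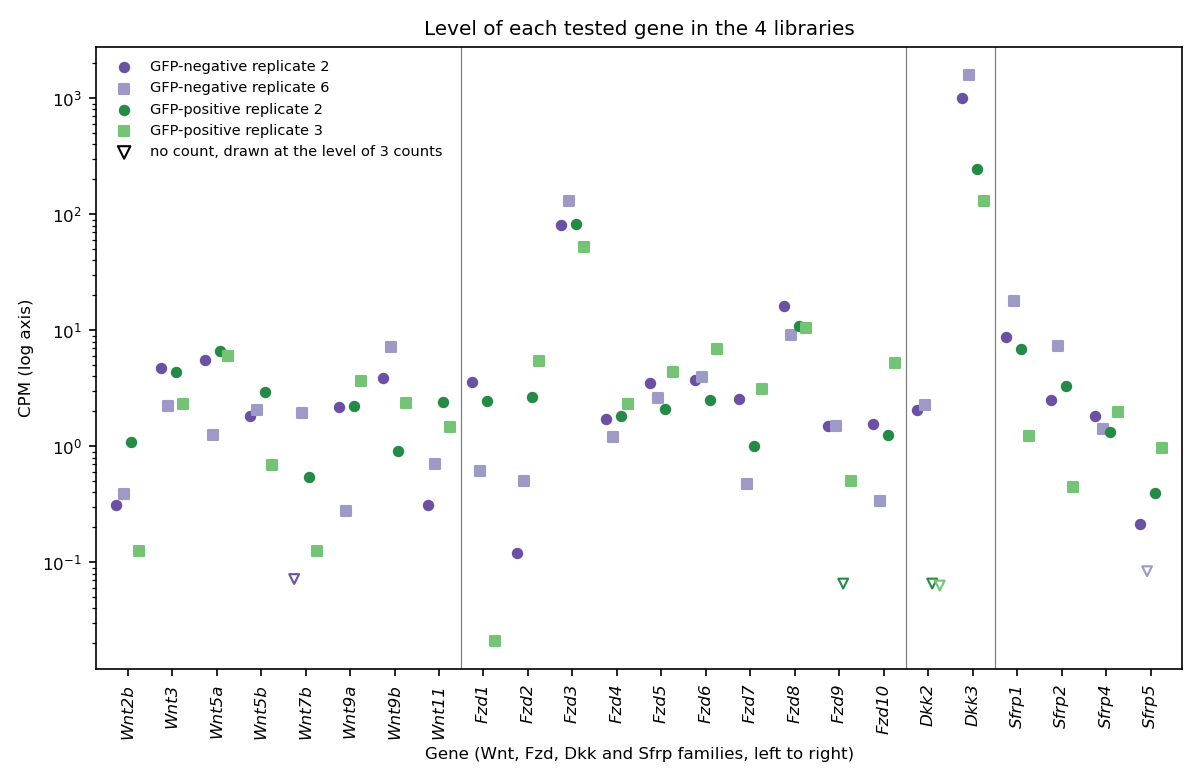
CPM (log axis) of the 24 tested Wnt, Fzd, Dkk and Sfrp genes in each of the 4 libraries, with genes of 0 counts drawn as open triangles at the level of 3 counts. Dkk3 stands above 100 CPM in every library with the GFP-negative libraries highest, Fzd3 is the next most abundant, and Dkk2 is at 0 in both GFP-positive libraries.

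Among the secreted inhibitors, Dkk3 (ENSMUSG00000030772) lies at chr7:112116017-112159057 on the minus strand (GRCm38) and encodes a divergent Dickkopf family glycoprotein, known as a marker of retinal progenitors and Müller glia. It had 42170 counts in GFP-negative replicate 2 and 56484 in replicate 6, against 11146 in GFP-positive replicate 2 and 6218 in replicate 3. Both GFP-negative libraries were therefore above both GFP-positive libraries, with 1293 ± 403 against 187 ± 79.9 CPM (SD, n = 2 each). Dkk3 fell by 2.79 on the log2 scale in GFP-positive cells (SE 0.47, edgeR adjusted p = 0.0342). In bulk libraries, fewer cells with a transcript and less transcript per cell cannot be told apart.

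Per kilobase of exon, Dkk3 stood at 385 ± 120 RPKM in GFP-negative and 55.8 ± 23.8 RPKM in GFP-positive cells (SD, n = 2 each). Ranked by RPKM or CPM within the gene set it was first in all 4 libraries. Among all tested genes ranked by CPM it stood at position 55 and 37 in the GFP-negative libraries and at 724 and 1604 in the GFP-positive libraries.

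The Dkk3 call depended on the estimate of spread and on single libraries. With edgeR's legacy quasi-likelihood form the same difference of -2.79 had an adjusted p of 0.100, and without a filter on low counts -2.82 had 0.0506. Without GFP-negative replicate 6 the difference was -2.43 (edgeR adjusted p = 0.175), without GFP-positive replicate 2 it was -3.33 (0.13) and without GFP-positive replicate 3 it was -2.41 (0.449), each from a fit in which the lone library is assumed to vary like the other fraction. Dkk3 was past the threshold in 9 of 14 alternatives, with adjusted p from 6.92e-09 to 0.449, and lower in GFP-positive cells in all of them.

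**Figure D2:**
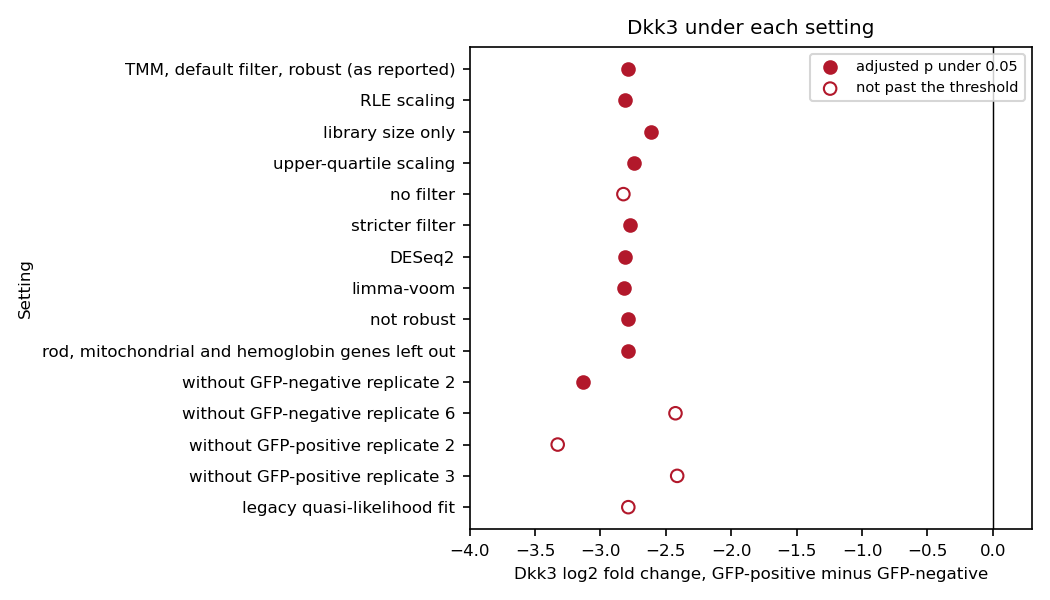
Log2 fold change of Dkk3 (GFP-positive minus GFP-negative, x axis) under the reported setting and each of 14 alternatives (y axis), filled where the adjusted p is under 0.05. All values lie between -3.33 and -2.41, and the open points are the fit without a filter, the legacy fit and the fits without GFP-negative replicate 6, GFP-positive replicate 2 or GFP-positive replicate 3.

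Dkk3 followed the same order over the 4 libraries as the summed pan-amacrine genes and the reverse order of the summed rod genes. These lists were not alone in this. The summed ganglion cell genes also had the order of Dkk3, at 307, 355, 225 and 102 CPM. The bipolar sums, and the endothelial and pericyte sums, had the reverse order. Of the 12 pan-amacrine genes, 5 were called lower (Tfap2c, Gad1, Gad2, C1ql1 and C1ql2), where 0.87% of all tested genes were. The list did not move as a whole. Pax6 (-0.19 on the log2 scale, edgeR adjusted p = 0.908) and Snhg11 (0.07) were nearly level, and Slc6a9 was higher in GFP-positive cells (0.90, edgeR adjusted p = 0.334). The 13 other Müller glia and progenitor genes, which include Rlbp1 (4603 and 3333 counts in the GFP-negative and 5224 and 6184 in the GFP-positive libraries), Slc1a3 (4468, 2055, 5706 and 5987) and Aqp4 (130, 89, 33 and 66), summed to 1082, 795, 908 and 1307 CPM, and none of the 13 was called. Groups did not overlap for 3 of the 13 that were higher in GFP-positive cells (Rlbp1, Slc1a3 and Crym) and for 2 that were lower (Clu and Aqp4). Over all tested genes, 22.5% did not overlap and were higher, and 21.3% did not overlap and were lower. Clu, which encodes the secreted chaperone clusterin, was the one with the smallest p and had 3251 and 5013 counts in GFP-negative cells and 1346 and 1901 in GFP-positive cells (-1.65 ± 0.38 on the log2 scale, SE, edgeR adjusted p = 0.0965). The part of rod, Müller glia or amacrine cell content in the Dkk3 difference was not tested.

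**Figure D3:**
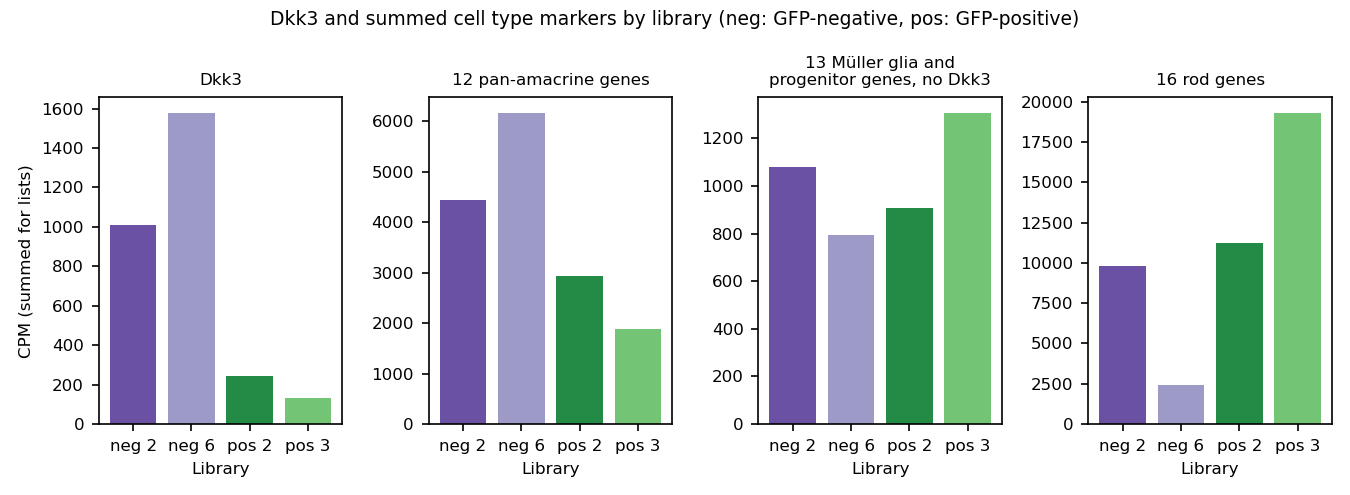
Dkk3 (CPM) and the summed CPM of 12 pan-amacrine, 13 Müller glia and progenitor (Dkk3 left out) and 16 rod genes as bars for each library, each panel with its own axis from 0. Dkk3 and the pan-amacrine sum share their order over the libraries, the rod sum has the reverse order, and the Müller glia and progenitor sums of the 2 fractions overlap.

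Dkk2 (ENSMUSG00000028031, chr3:132085292-132180304, plus strand) encodes an Lrp5 and Lrp6 binding modulator, and its upstream sequence is printed above. It had 86 and 82 counts in GFP-negative replicates 2 and 6 and none in either GFP-positive library. Taking 3 counts over the GFP-positive group as the floor, Dkk2 was at least 67.6-fold lower there, a bound for counting error only. The spread between libraries is not in this bound: Wnt7b had 0 and 70 counts within the GFP-negative fraction. The edgeR adjusted p was 0.162, so Dkk2 was not called. DESeq2 was the only alternative that called it (adjusted p = 0.000268, against 0.124 to 0.651 in the other 13). Dkk4 had 4 counts, all in GFP-negative replicate 2, and Dkk1 had none in any library.

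Sfrp1 (ENSMUSG00000031548) had the highest level per length of the Frizzled-related genes, a family of secreted proteins with a Frizzled-like Wnt-binding domain. Its counts were 367 and 637 in the GFP-negative libraries and 315 and 58 in the GFP-positive libraries. The fractions did not overlap, at 3.04 ± 1.46 against 0.927 ± 0.917 RPKM (SD, n = 2 each), but the GFP-positive libraries differed from each other more than GFP-negative replicate 2 did from GFP-positive replicate 2. The difference was -1.71 ± 0.75 on the log2 scale (SE, edgeR adjusted p = 0.397).

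Sfrp2 showed a like spread, with 104 and 262 counts against 151 and 21, and its fractions overlapped. Sfrp4 was nearly level, with 76 and 50 counts against 61 and 93. Sfrp5 was the least abundant, with 9 and 0 counts against 18 and 46. In GFP-positive replicate 3, Sfrp1 and Sfrp2 each had their lowest count while Sfrp4 and Sfrp5 had their highest. Sfrp2 shares exonic bases with the antisense gene Gm26771, and since the strand setting of the counting is not given, reads of the 2 cannot be told apart.

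All 10 Frizzled receptor genes were tested and none was called. Fzd2 (ENSMUSG00000050288, chr11:102604396-102608058, plus strand), a receptor of both the beta-catenin and the planar polarity branches, had 5 and 18 counts in GFP-negative cells and 121 and 259 in the GFP-positive libraries. Both GFP-positive libraries were above both GFP-negative libraries. The mean levels were 0.311 ± 0.271 against 4.05 ± 1.98 CPM (SD, n = 2 each), a difference of 3.75 ± 1.02 on the log2 scale (SE, edgeR adjusted p = 0.162). With 1 library left out, that difference was 2.95 (GFP-negative replicate 2 out), 5.06 (GFP-negative replicate 6 out), 4.15 (GFP-positive replicate 2 out) and 3.13 (GFP-positive replicate 3 out), so its size is poorly fixed. Of 14 alternatives DESeq2 called Fzd2 (adjusted p = 0.0196) and the others did not, with adjusted p up to 0.77.

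Fzd3, a receptor known for its part in axon growth and guidance, was the most abundant receptor per length in both fractions. It had 3398 and 4630 counts in GFP-negative cells and 3735 and 2482 in the GFP-positive libraries. GFP-negative replicate 2 and GFP-positive replicate 2 were nearly equal, at 81.2 and 81.7 CPM, and the fractions overlapped. At 8.22 ± 2.65 against 5.23 ± 1.63 RPKM (SD, n = 2 each), the difference was -0.65 ± 0.36 on the log2 scale (SE, edgeR adjusted p = 0.515).

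Fzd8 was the second receptor per length, with 684 and 326 counts in GFP-negative cells and 496 and 498 in the GFP-positive libraries. Its fractions overlapped, with both GFP-positive libraries between the GFP-negative ones. Fzd9 had 63 and 54 counts in GFP-negative cells, against none in GFP-positive replicate 2 and 24 in replicate 3, and its groups did not overlap (-2.54 ± 1.16, SE, edgeR adjusted p = 0.413). Fzd4, the receptor of Norrin, had 72 and 43 counts against 83 and 110. On the CPM scale its fractions did not overlap, by a margin of 1.72 to 1.82 CPM between the nearest libraries.

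The other receptors varied as much within a fraction as between fractions. Fzd1 had 149 and 22 counts in GFP-negative cells and 112 and 1 in the GFP-positive libraries. Fzd7 had 108 and 17 counts against 46 and 148, and Fzd10 had 65 and 12 against 57 and 248. These 3 were each lower in GFP-negative replicate 6 than in replicate 2. Fzd5, a receptor expressed in retinal progenitors, had 148 and 94 counts against 95 and 209, and Fzd6, a planar polarity receptor, had 157 and 141 against 114 and 326. Fzd5 shares exonic bases with Gm38058 and Fzd6 with Gm26704, both on the opposite strand.

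Of the 19 Wnt ligand genes, 8 were tested and none was called. The level per length was highest for Wnt3, a ligand of the beta-catenin branch, at 1.14 ± 0.58 RPKM in GFP-negative and 1.09 ± 0.474 RPKM in GFP-positive cells (SD, n = 2 each). It had 199 and 80 counts in GFP-negative cells and 201 and 111 in the GFP-positive libraries, so that the number-2 library was the higher one in both fractions. The difference was -0.07 ± 0.70 on the log2 scale (SE, edgeR adjusted p = 0.985).

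Wnt9b, a ligand best known from kidney development, lies 24.3 kb from Wnt3 on chromosome 11 and on the other strand. It had 161 and 258 counts in GFP-negative cells and 42 and 112 in the GFP-positive libraries. Its fractions did not overlap, at 5.53 ± 2.37 against 1.64 ± 1.02 CPM (SD, n = 2 each). The difference was -1.74 ± 0.74 on the log2 scale (SE, edgeR adjusted p = 0.379). Whether the difference of Wnt9b is unlike that of its neighbour Wnt3 was not tested.

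Wnt11, Wnt5a and Wnt9a had higher CPM in both GFP-positive libraries than in either GFP-negative library. Wnt11 had 13 and 25 counts in GFP-negative cells and 111 and 70 in the GFP-positive libraries, with no overlap (1.98 ± 0.94 on the log2 scale, SE, edgeR adjusted p = 0.43). Wnt5a had 230 and 45 counts against 302 and 284, and Wnt9a had 92 and 10 against 101 and 175. Both also had separate fractions, but their GFP-negative libraries differed more than 4-fold in CPM and GFP-negative replicate 2 was close to the GFP-positive libraries. Wnt11 shares exonic bases with Gm8398 and Wnt5a with Gm2670, on the opposite strand.

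Wnt2b, Wnt5b and Wnt7b were low and overlapped between fractions. Wnt2b had 13 and 14 counts against 50 and 6, Wnt5b 76 and 74 against 133 and 33, and Wnt7b 0 and 70 against 25 and 6. For Wnt7b, GFP-negative replicate 6 alone held most of the counts; the gene shares exonic bases with AU022754 on the opposite strand. All 3 were lower in GFP-positive replicate 3 than in GFP-positive replicate 2.

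Too few counts for a test were found for Wnt1, Wnt2, Wnt4, Wnt6, Wnt7a, Wnt8a, Wnt8b and Wnt16. Wnt4 had 18 and 8 counts in GFP-negative replicates 2 and 6 and none in GFP-positive cells. The other 7 had counts in 1 library only: Wnt2 had 3, Wnt6 had 1 and Wnt7a had 11, all in GFP-negative replicate 6, while Wnt1 had 6, Wnt8a 8, Wnt8b 6 and Wnt16 11, all in GFP-positive replicate 2. Wnt3a, Wnt10a and Wnt10b had no count in any library. Wnt3a lies 16.2 kb from the tested Wnt9a. Wnt10a lies 6.2 kb from Wnt6 and Wnt10b 11.7 kb from Wnt1, and in these pairs both genes had too few counts or none.

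Counted over the 24 tested genes, 1 was called lower and 0 higher, where 1.1% of all tested genes were called, 0.87% lower and 0.234% higher. At an unadjusted edgeR p under 0.05 there was 1 higher gene (Fzd2) and 4 lower genes (Dkk3, Dkk2, Wnt9b and Sfrp1), where 12.6% of all tested genes were, 5.24% higher and 7.34% lower. Before adjustment the edgeR p was 0.000269 for Dkk3, 0.0049 for Dkk2, 0.00492 for Fzd2, 0.044 for Wnt9b and just under 0.05 for Sfrp1; an exact permutation test of 2 against 2 libraries cannot go below 0.333. The groups did not overlap for 6 higher genes (Wnt5a, Wnt9a, Wnt11, Fzd2, Fzd4 and Sfrp5) and 5 lower genes (Wnt9b, Fzd9, Dkk2, Dkk3 and Sfrp1), which is 25% and 20.8% of the 24, near the 22.5% and 21.3% of all tested genes, or 43.8% in both directions. There were 12 genes with a positive and 12 with a negative log2 fold change, and the median was -0.02, also with Dkk2 at its bound, beside 0.04 for all tested genes. By subfamily the medians were 0.36 for the 8 Wnt genes, 0.18 for the 10 Frizzled genes and -0.68 for the 4 Frizzled-related genes, none of which is a test.

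**Figure D4:**
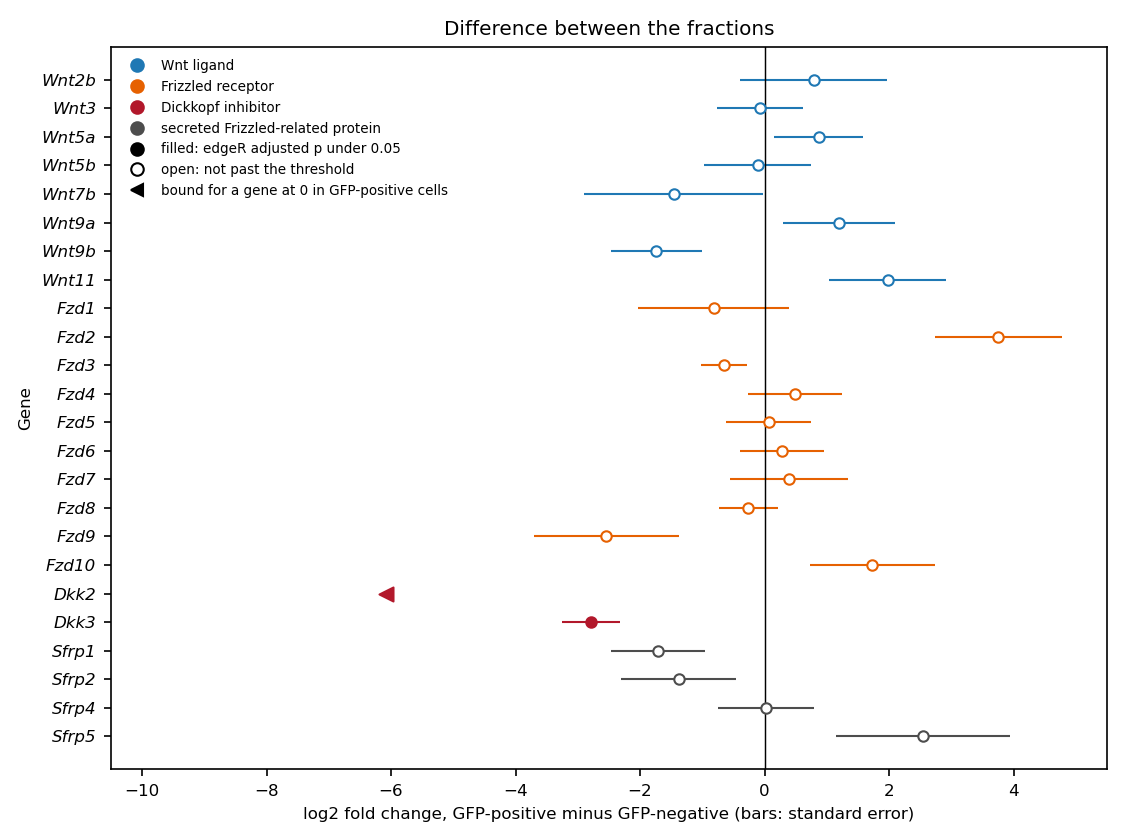
Log2 fold change, GFP-positive minus GFP-negative, of the 24 tested genes with its standard error, coloured by subfamily and filled where the edgeR adjusted p is under 0.05. Dkk3 at -2.79 is the filled point, Dkk2 is drawn at its bound and Fzd2 at 3.75 is the highest open point, while the other points lie between -2.54 and 2.54.

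Around these families, 118 of 122 listed pathway gene names were in the count table and 105 genes were tested. Of these, 1 was called higher and 1 lower, where 0.234% and 0.87% of all tested genes were, and at an unadjusted edgeR p under 0.05 there were 4 higher and 13 lower genes, where 5.24% of all tested genes were higher and 7.34% lower. Their median log2 fold change was 0.02, beside 0.04 for all tested genes. Groups did not overlap for 22 higher and 23 lower genes, which is 21% and 21.9%, near the 22.5% and 21.3% of all tested genes. The counts given for single lists are read against the same shares. Gpc3, a glypican that binds Wnt proteins at the cell surface, was the gene called higher: it had 194 and 111 counts in GFP-negative cells and 3800 and 2521 in the GFP-positive libraries. It rose by 4.13 ± 0.43 on the log2 scale (SE, edgeR adjusted p = 0.0107), though not past the threshold without GFP-negative replicate 6 (adjusted p = 0.107), the only one of 14 alternatives that lost it.

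Rspo4, which encodes an R-spondin, a secreted protein that strengthens Wnt signals through Lgr receptors, was the gene called lower. It had 299 and 215 counts in GFP-negative replicates 2 and 6 and none in GFP-positive cells (edgeR adjusted p = 0.0408). With 3 counts over the group as the floor, Rspo4 was at least 204-fold lower there, a bound for counting error only. Like Dkk2 it was thus detected in both libraries of one fraction and in neither of the other. It passed the threshold in 5 of 14 alternatives, with adjusted p from 1.83e-08 to 0.253, and never when a library was left out (0.0718 to 0.253). Lgr5, an R-spondin receptor and itself a target of beta-catenin, had 420 and 101 counts in GFP-negative and 614 and 1258 in GFP-positive cells (edgeR adjusted p = 0.335).

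Among co-receptors and alternative receptors, 0 of 10 tested genes were called and 1 had an unadjusted p under 0.05. That gene was Lrp5, a Wnt and Norrin co-receptor, with 6 and 3 counts in GFP-negative cells and 86 and 80 in the GFP-positive libraries. Its fractions were separate, with a difference of 3.91 ± 1.09 on the log2 scale (SE, edgeR adjusted p = 0.155). Its relative Lrp6 was far more abundant and nearly level, with 1805 and 1226 counts against 1874 and 2262 (0.19 on the log2 scale). On the CPM scale the fractions of Lrp6 overlapped. Ryk, a receptor-like kinase that binds Wnts, had 3242 and 2388 counts against 2995 and 2599. In CPM these were 77.5 and 66.7 against 65.5 and 54.7, separate by a small gap (edgeR adjusted p = 0.779). The kinases Ror1, with 75 and 91 counts against 57 and 178, and Ror2, with 74 and 116 against 193 and 105, overlapped between fractions.

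Of the other secreted or surface modulators, 12 were tested, with 1 called higher (Gpc3, above). Frzb, a Frizzled-related protein whose symbol falls outside the Sfrp names, had 134 and 133 counts in GFP-negative and 249 and 533 in GFP-positive cells, with separate groups (1.27 ± 0.61, SE, edgeR adjusted p = 0.434). Sostdc1, a secreted antagonist, had 264 and 336 counts against 48 and 183, and the glypican Gpc4 had 767 and 1828 against 738 and 212. In the Norrin axis, Ndp, which encodes Norrin, had 435 and 547 counts against 126 and 302 (-1.49 ± 0.57, SE, edgeR adjusted p = 0.326), and Tspan12, a partner of Fzd4, had 626 and 1085 against 720 and 623. Neither of the 2 Norrin axis genes was called. The 4 genes for making and releasing Wnt proteins were not called either, with a median of -0.04. Among them, Wls had 132 and 60 counts in GFP-negative cells and 0 and 251 in the GFP-positive libraries.

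Inside the cell, 0 of 22 cytoplasmic transducers were called. Ctnnb1, which encodes beta-catenin, had 16450 and 18155 counts in GFP-negative cells and 17151 and 12878 in the GFP-positive libraries. In CPM these were 393 and 507 against 375 and 271, so that the fractions were separate with a small gap between the nearest libraries (-0.48 on the log2 scale, edgeR adjusted p = 0.633). Dact1, an adaptor that binds Dishevelled, had 493 and 1119 counts against 3486 and 2181 with separate groups (edgeR adjusted p = 0.254). Nkd2, another Dishevelled-binding protein, had 274 and 254 against 81 and 0 (edgeR adjusted p = 0.254), and Dact2 had 288 and 240 against 139 and 6. Of 14 nuclear effectors 0 were called. Tle4, a co-repressor that TCF/LEF factors recruit, had the smallest p of this list, with 3449 and 2787 counts against 1580 and 816 (edgeR adjusted p = 0.112). Lef1 had 59 and 19 counts against 0 and 99, and Tcf7l2 had 265 and 83 against 277 and 298. In CPM, Tcf7l2 was at 6.33 and 2.32 against 6.06 and 6.27, so its fractions overlapped.

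Among 15 tested genes often listed as transcriptional targets of beta-catenin, 0 were called and 1 higher and 4 lower genes had an unadjusted edgeR p under 0.05, where 5.24% and 7.34% of all tested genes had one, with a median of 0.24. Axin2, the target most used as a readout of the pathway, had 50 and 59 counts in GFP-negative cells and 95 and 86 in the GFP-positive libraries (0.46 on the log2 scale, edgeR adjusted p = 0.861). The 4 lower genes were Id2, with 4155 and 4285 counts against 1894 and 1896 (edgeR adjusted p = 0.0752), Bambi (821 and 1579 against 400 and 443), Tnfrsf19 (342 and 499 against 112 and 126) and Myc (293 and 261 against 50 and 99). Each had separate groups. The 1 higher gene was Lgr5, with its counts given above. Of the 15, groups did not overlap for 5 higher genes, Axin2 and Lgr5 among them, and for 5 lower genes, the 4 named among them. That is 33.3% in each direction, where 22.5% and 21.3% of all tested genes did not overlap. Of the 15 log2 fold changes, 10 were positive and 5 negative. Several of these genes also answer to other pathways, such as Id2 and Bambi to BMP and TGF-beta signals. Of 27 planar cell polarity and non-canonical genes 0 were called, and the 2 with an unadjusted edgeR p under 0.05 were Daam1, a formin that binds Dishevelled, with 6952 and 6939 counts against 3516 and 3471 (edgeR adjusted p = 0.112), and Nfatc2, a calcium-dependent factor, with 515 and 822 against 347 and 336.

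**Figure D5:**
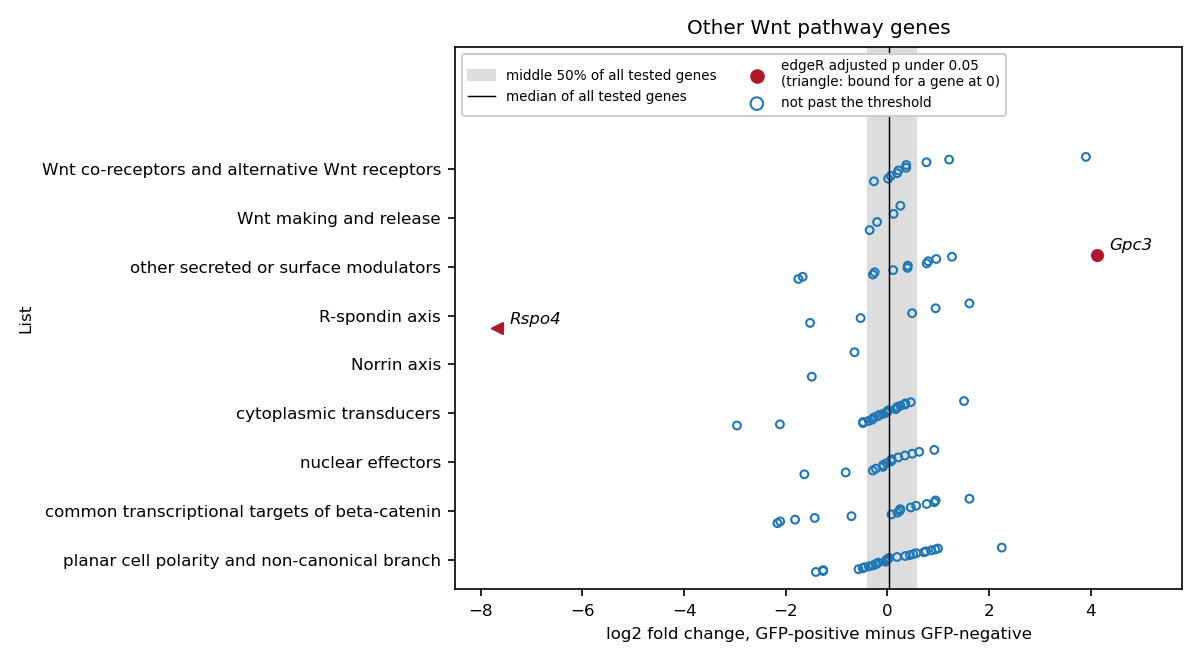
Log2 fold change, GFP-positive minus GFP-negative, of each tested pathway gene outside the Wnt, Fzd, Dkk and Sfrp families (x axis) by list (y axis), with the middle 50% of all tested genes shaded. Gpc3 at 4.13 and Rspo4, drawn at its bound, are the 2 filled points past the edgeR threshold, and most open points lie near the median of all tested genes, 0.04.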

How the data were processed

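Sorted cells were lysed for a small-scale RNA kit and cDNA was made with SMART-Seq chemistry, per the labels' protocols. The authors deposited raw read counts per Ensembl gene. The submitters' processing notes list STAR 2.7.3a, Trimmomatic, MultiQC, limma and the build GRCm38; which tool counted reads, on what annotation and with what strand setting, is not given there or in the labels. A second deposited table holds the same libraries rescaled and was not used. Reads carry no stated molecular identifiers.

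Groups came from the fluorescence label. The series text describes a sample of each fraction from each animal, so libraries of a fraction were taken as separate animals; whether replicate 2 is the same animal in both is not given. Exon lengths and coordinates came from GENCODE M21 (GRCm38), which held 55230 of the 55471 gene IDs; upstream windows came from RefSeq (GRCm38.p6).

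The fractions were tested in edgeR 4.0.16 (R 4.3.3) with TMM factors of 1.017 and 0.873 in the GFP-negative and 1.024 and 1.1 in the GFP-positive libraries, filterByExpr (minimum count 10, minimum total 15), robust glmQLFit and glmQLFTest, adjusted by Benjamini-Hochberg over 17940 genes of 27925 with a count. There were 2 residual and a median 6.59 prior degrees of freedom, and the common biological coefficient of variation was 55.4%. An exact permutation test of 2 against 2 libraries cannot go below 0.333 (two-sided), so no single-gene permutation test is given.

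The planned test did not say which quasi-likelihood form to use. The legacy form, the default of this edgeR version, was fitted first and called 48 genes, Dkk3 not among them; the newer form, used in an earlier analysis of these data, was then taken as the main fit, with results of both known, and the legacy form is given as an alternative chosen after seeing the data. The genes and lists were also chosen with earlier results of these data known. Every gene of the 4 families is accounted for; full statistics go to those with an unadjusted p under 0.05 and to the most abundant per length of each family. Other pathway genes named are the called ones, up to 4 per list by smallest p, and a fixed set given whether or not they pass (Lrp5, Lrp6, Ryk, Ror1, Ror2, Ctnnb1, Axin2, Lef1, Tcf7l2, Frzb, Ndp, Tspan12). The planned comparison of proteins was not run because no protein sequences were used here. Alternatives were 3 other scalings, no filter, a filter that asked for over 1 CPM in 2 libraries or more, DESeq2 1.42.0, limma-voom (limma 3.58.1), a non-robust fit, leaving out rod, mitochondrial and hemoglobin genes, and leaving out each library in turn. The edgeR step was tested on simulated data.

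Marker lists not printed in the report summed, with the GFP-negative libraries first, to 513, 148, 431 and 793 CPM (cone), 1155, 453, 1399 and 1970 (bipolar), 307, 355, 225 and 102 (ganglion cell), 276, 213, 271 and 211 (horizontal), 146, 104, 51.4 and 80.9 (astrocyte), 101, 65.6, 123 and 134 (endothelial and pericyte), 106, 70.3, 37.6 and 117 (microglia) and 18.5, 24.8, 10.1 and 27.9 (pigment epithelium, with Tyr at 0).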

Additional observations from a re-analysis of the deposited data

How the results depend on the processing

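Over all genes, 198 calls became 106 with no filter, 323 with the stricter filter, 794 with DESeq2, 92 with limma-voom and 48 with the legacy quasi-likelihood form, and 1 to 336 when 1 library was left out (for the GFP-negative libraries, 336 without replicate 2 and 1 without replicate 6; for the GFP-positive ones, 108 without replicate 2 and 5 without replicate 3). Of the Wnt, Fzd, Dkk and Sfrp genes, 1 was called as reported, 3 with DESeq2 (Dkk2, Dkk3 and Fzd2), 0 with no filter, 0 with the legacy form and 0 to 1 with a library left out; at an unadjusted edgeR p under 0.05 there were 5 as reported, 5 with no filter, 3 with the legacy form, 3 without GFP-negative replicate 6, 8 after leaving out GFP-positive replicate 2 and 5 after leaving out GFP-positive replicate 3. Of the other pathway genes, 2 were called as reported, 3 with the stricter filter, 8 with DESeq2, 1 each with library-size scaling, no filter, limma-voom, the non-robust fit and the legacy form, and 0 to 2 with a library left out, where the 0, without GFP-negative replicate 6, stood beside 10 at an unadjusted edgeR p under 0.05. The cause of these changes was not tested; fewer libraries leave fewer degrees of freedom, and a lone library is assumed to vary like the other fraction. The sign was the same in every alternative run for 14 of 24 tested genes of the families and 23 of 27 named pathway genes (Wls not counted). Signs reversed for Wnt3 (0.0605) and Wnt5b (0.0427) with library-size scaling, which moved the median of all genes from 0.04 to 0.21, for Sfrp4 (-0.000191) with no filter, and for Fzd5 (-0.0172), Lef1 (-2.54) and Wnt7b (1.02) with limma-voom. With a library left out, the log2 fold change ran from -6.49 to 0.92 for Fzd1, -0.58 to 0.49 for Fzd5, -0.63 to 0.81 for Fzd6, -0.64 to 2.06 for Fzd7, -0.61 to 0.17 for Fzd8, -8.35 to 1.05 for Lef1, -0.79 to 0.77 for Ror1, -0.19 to 0.86 for Ror2, -0.28 to 0.26 for Sfrp4, -0.0373 to 1.35 for Tcf7l2, -1.46 to 1.64 for Wnt2b, -0.61 to 0.53 for Wnt3, -1.498 to 0.58 for Wnt5b and -2.88 to 6.92 for Wnt7b. Genes near the count minimum are limited by depth, and n = 2 limits all of them. No paired analysis was possible because the fractions share only replicate number 2.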
